A study of Mus musculus with 12 samples.

Results

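Mechanosensing genes, 7 in number, were followed here, the channel genes Piezo1, Trpv4, Trpv2 and Trpc6 and the caveola genes Cav1, Cav2 and Cavin1. They were taken by gene symbol, older names included (Fam38a for Piezo1, Ptrf for Cavin1). The platform annotation gave them 10 of the 45037 probe sets on the array, and for a gene with several probe sets the one with the highest mean leads. Of the 7 genes, 6 passed the filter on dim probe sets, a mean log2 signal over all arrays of at least 3.06 (the 40th percentile), and were tested among 12309 genes. Trpv4 lay under it and is given by its values.

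Piezo1 is a calcium-permeable channel that opens when the membrane is stretched. The TRP channels also let calcium in. TRPV4 is opened by cell swelling, warmth and lipid messengers and, in mouse lung, is known for its part in the vascular leak caused by overventilation. TRPV2 responds to stretch and is known from macrophages, and TRPC6 is gated by diacylglycerol and is known from vascular smooth muscle, where it serves hypoxic constriction of lung vessels in mice. Caveolae are flask-shaped pits of the plasma membrane that flatten under tension. Caveolin-1 is their main membrane protein, caveolin-2 pairs with it and needs it to reach the surface, and cavin-1 is the coat protein that shapes the pit. Lung endothelium and alveolar type 1 cells are rich in them.

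Total RNA of whole lung was hybridised to 12 Affymetrix mouse expression arrays. All mice were male C57BL/6, 8 to 12 weeks old. Wild-type (WT) and nmMLCK-/- mice either breathed spontaneously (SB) or received injurious ventilation for 4 h (VILI, ventilator-induced lung injury), which makes 4 groups of 3 arrays. Ventilation ran at 65 breaths per min and 0 cm H2O end-expiratory pressure, with a tidal volume that differs between the labels (40 ml/kg) and the description of the series (30 ml/kg). nmMLCK, the long isoform that the Mylk gene makes of myosin light chain kinase outside muscle, is named as lost, and the labels do not say how its allele was made or in which cells. No group was ventilated gently, so the tidal volume cannot be told apart from the rest of the procedure. The series description counts 3 animals per group, while the labels do not tie each array to an animal, so p-values measure the spread between these samples.

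Surfactant and other alveolar type 2 genes were bright in all arrays, with a log2 summed signal of 16.97 to 17.11 over 5 of the 6 listed markers, so the lung label was borne out. The 3 Mylk probe sets were lower in nmMLCK-/- than in WT under SB by 0.97, 0.70 and 0.22 log2, and none passed (limma adjusted p = 1 each, unadjusted p = 0.068, 0.021 and 0.018), and the isoform that each probe set reads is not given. Among the SB arrays, WT replicate 3 and nmMLCK-/- replicate 2 stood apart, at 33.2 and 20.2 on the second principal component against -26.2 to -12.4 in the other 4. WT SB replicate 3 also had the neutrophil markers of a ventilated lung, with a median of 1.14 relative to each gene's mean, against -2.07 to -1.21 in the other 5 SB arrays and 0.79 to 1.65 in the VILI arrays. For the Mylk difference of 0.97, WT SB replicate 3 read 4.67, replicates 1 and 2 read 6.70 and 6.55, and nmMLCK-/- SB 4.63 to 5.51. For that of 0.70, WT SB replicate 3 read 12.29, inside nmMLCK-/- SB (11.69 to 12.5). For that of 0.22 it read 12.98, above nmMLCK-/- SB (12.71 to 12.83). Member results that rest on the SB arrays that stood apart are given with and without them, those of the related lists in part. Mylk differences and marker lists are given with all arrays only.

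In the RefSeq annotation of GRCm38.p6, Cav2 and Cav1 are neighbours on chromosome 6 in the same orientation, with 0 annotated genes between them. Their RefSeq promoter windows, 250 bases before to 50 after the start site, are shown because both genes were lower after VILI in the mean over genotypes, and that of Trpc6 because it had the largest difference among the members. Capitals mark matches, on either strand, to GGGCGG (the GC box), TGANTCA (AP-1), TATAAA (the TATA box), CCACCC (bound by KLF factors) or GGAATG (bound by TEAD factors, the partners of YAP). The windows are Cav2 at chr6:17280935-17281234 on the plus strand, Cav1 (the upstream of its 2 annotated starts) at chr6:17306085-17306384 on the plus strand, and Trpc6 at chr9:8543892-8544191 on the plus strand. The annotated Trpc6 gene begins at base 8543867, so its window lies inside the gene.
Cav2: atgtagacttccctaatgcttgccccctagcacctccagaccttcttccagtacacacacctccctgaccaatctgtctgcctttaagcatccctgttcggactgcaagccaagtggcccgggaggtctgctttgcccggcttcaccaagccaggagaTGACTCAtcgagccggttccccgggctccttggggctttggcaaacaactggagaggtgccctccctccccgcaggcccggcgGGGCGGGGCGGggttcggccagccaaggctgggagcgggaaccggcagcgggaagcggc
Cav1: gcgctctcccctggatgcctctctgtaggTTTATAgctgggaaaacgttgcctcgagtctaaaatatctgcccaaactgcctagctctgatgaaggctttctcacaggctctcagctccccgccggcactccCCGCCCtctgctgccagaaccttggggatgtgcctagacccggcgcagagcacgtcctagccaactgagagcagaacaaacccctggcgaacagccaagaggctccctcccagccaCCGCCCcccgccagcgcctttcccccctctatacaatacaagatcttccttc
Trpc6: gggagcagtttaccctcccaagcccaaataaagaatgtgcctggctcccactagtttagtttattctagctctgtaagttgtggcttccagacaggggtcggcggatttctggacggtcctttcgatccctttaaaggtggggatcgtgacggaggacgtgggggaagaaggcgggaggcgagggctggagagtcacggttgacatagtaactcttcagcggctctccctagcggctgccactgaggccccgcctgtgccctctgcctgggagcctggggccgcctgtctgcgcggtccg
Cav2 held 2 overlapping GC boxes and 1 AP-1 match, Cav1 held 2 GC boxes and 1 TATA box match read on the minus strand, and the Trpc6 window held none of the 5 letter strings. All 7 genes had a promoter entry, 11 windows in all. A GC box was found in 6 of the 11 windows (5 of the 7 genes), against 35.7% of all 32851 promoter windows. An AP-1 match was in 1 window, against 7.81%. A KLF match was in 3 windows of 2 genes (Trpv4 and Cavin1), against 31.5%. A TEAD match was in 3 windows of 2 genes (Trpv2 and Cavin1), against 14.7%, and a TATA box in 3 windows of 3 genes, against 13.6%. The 2 Cavin1 windows overlap, as do 2 of the 3 Trpv2 windows, so their matches are partly the same letters. These matches are letters in the window and say nothing of binding.

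Of the 7 genes, Trpc6, Cav2 and Cav1 were lower after VILI in the mean over both genotypes, and no member was called in either genotype alone. Differences are VILI minus SB, or nmMLCK-/- minus WT, on the log2 scale of the deposited signals, with the standard error (SE) of the limma fit, and a gene was called at a limma adjusted p under 0.05. In WT, 0 of the 6 tested members were called, against 15.4% of all genes (unadjusted p under 0.05 for 1 member and 3825 genes). In nmMLCK-/-, 0 of 6 were called, against 20.7% (unadjusted limma p under 0.05 for 2 members and 4538 of 12309 genes). Averaged over both genotypes, with 6 arrays against 6, 3 of 6 fell, Trpc6, Cav2 and Cav1, and none rose, against 36.7% of all genes called, 22.6% lower and 14.1% higher. The mean effect combines the same arrays as the responses of the separate genotypes. The members' median mean effect was -0.04 log2, beside -0.05 for all genes. At this number of arrays, a share of 3 in 6 is near the background and is no result about the group.

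**Figure D1:**
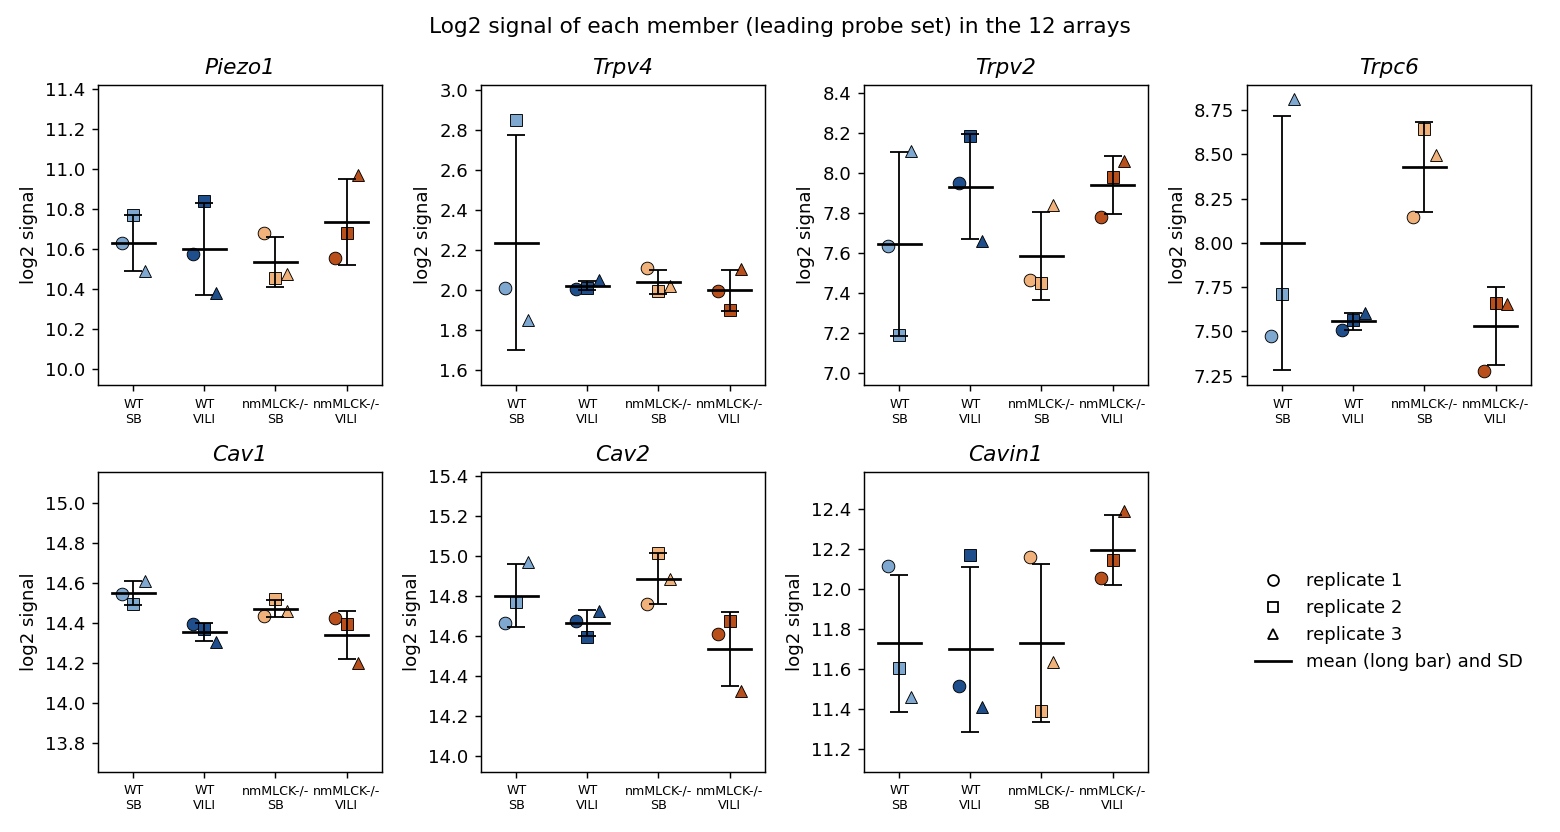
Log2 signal (vertical axis) of the leading probe set of each of the 7 members in the 4 groups. Symbols are the 3 replicates, the long bar is the group mean and the error bar the SD. Trpc6 is higher in the 3 nmMLCK-/- SB arrays (8.15 to 8.64) than in the 6 VILI arrays (7.27 to 7.66), while WT SB spans 7.47 to 8.82.

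Piezo1 read 10.63, 10.77 and 10.49 in WT SB and 10.58, 10.84 and 10.38 in WT VILI. In nmMLCK-/- it read 10.68, 10.46 and 10.48 under SB and 10.55, 10.68 and 10.97 after VILI. The groups overlapped in both genotypes, and the whole range over 12 arrays was 0.59 log2. The VILI difference was -0.03 ± 0.15 in WT (adjusted p = 0.904), with a 95% interval of -0.35 to 0.29, and 0.20 ± 0.15 in nmMLCK-/- (adjusted p = 0.347), with an interval of -0.12 to 0.52. In WT the sign turned with array medians set equal (0.02) and without WT SB replicate 2 (0.04) or WT VILI replicate 3 (0.08).

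Trpv4 stood at 2.01, 2.85 and 1.85 in WT SB, at 2.01, 2.01 and 2.05 in WT VILI, at 2.11, 1.99 and 2.02 in nmMLCK-/- SB and at 1.99, 1.90 and 2.11 in nmMLCK-/- VILI. Apart from WT SB replicate 2, the arrays lay within 1.85 to 2.11, under the filter level of 3.06. Its single probe set therefore gave no level that could be compared between groups. In the fit without a filter its mean VILI effect was -0.13 ± 0.15 (adjusted p = 0.58). This signal does not show whether the channel's mRNA was absent from these lungs.

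Trpv2 read 7.64, 7.19 and 8.11 in WT SB and 7.95, 8.18 and 7.66 in WT VILI. It read 7.47, 7.45 and 7.84 in nmMLCK-/- SB and 7.78, 7.98 and 8.06 in nmMLCK-/- VILI. The VILI means were higher in both genotypes and the groups overlapped in both. The difference was 0.29 ± 0.22 in WT (adjusted p = 0.417), 0.35 ± 0.22 in nmMLCK-/- (adjusted p = 0.27) and 0.32 ± 0.16 in the mean (adjusted p = 0.132). Without WT SB replicate 3, which has its group's highest Trpv2 signal and highest neutrophil marker median, the mean effect was 0.44 ± 0.13 and passed (limma adjusted p = 0.0279). It did not pass without that array and nmMLCK-/- SB replicate 2 together (0.40, adjusted p = 0.0511). The WT difference was 0.52 without WT SB replicate 3 and 0.06 without WT SB replicate 2. Neutrophil markers rose after VILI in the mean effect in 6 of 6 tested genes, against 14.1% of all genes. Of the alveolar macrophage markers 1 of 6 did, near that share, Marco by 1.42 ± 0.38. In WT 1 of 6 neutrophil and 2 of 6 macrophage markers rose, against 6.34% of all genes. In nmMLCK-/- 6 of 6 and 0 of 6 did, against 8.12%. The neutrophil list's log2 summed signal was 12.59 to 15.36 in WT SB, 14.87 to 15.60 in WT VILI, 12.00 to 12.36 in nmMLCK-/- SB and 15.08 to 15.80 in nmMLCK-/- VILI. Their part in the Trpv2 values was not tested. In RNA of a whole lung, a change in the number of cells of a type and one in the RNA per cell cannot be told apart.

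Trpc6 was the member with the largest difference. It read 8.15, 8.64 and 8.49 in nmMLCK-/- SB and 7.27, 7.66 and 7.66 in nmMLCK-/- VILI. These groups did not overlap, as was the case for 43.8% of all genes (25.8% with VILI lower). In WT it read 7.47, 7.71 and 8.82 under SB and 7.51, 7.57 and 7.60 after VILI, so that WT SB replicate 3 lay far above the WT VILI arrays, replicate 2 just above them and replicate 1 below them. The difference in nmMLCK-/- was -0.90 ± 0.29 (0.54-fold) and narrowly did not pass (adjusted p = 0.0519, unadjusted p = 0.011), with a 95% interval of -1.54 to -0.25. In WT it was -0.44 ± 0.29 (adjusted p = 0.336), and it was -0.03 without WT SB replicate 3 and -0.70 without WT SB replicate 1. The mean effect of -0.67 ± 0.21 passed (adjusted p = 0.0278). VILI was lower than the SB mean of its genotype in 6 of 6 arrays, but the WT SB mean of 8.00 was raised by replicate 3.

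Without WT SB replicate 3 the nmMLCK-/- difference was still -0.90, its SE went from 0.29 to 0.15, and it passed (adjusted p = 0.00349). Without that array and nmMLCK-/- SB replicate 2 together it was -0.79 ± 0.15 (adjusted p = 0.01). The call was also made with the fit limited to the nmMLCK-/- arrays (adjusted p = 0.0218) and with the filter at the 60th percentile (adjusted p = 0.0413). It was not made in 10 of the 12 leave-one-array-out fits (adjusted p up to 0.156, without nmMLCK-/- SB replicate 2). Of the 9 other alternative settings, 4 made it (adjusted p up to 0.0927). The mean effect was -0.47 ± 0.11 without WT SB replicate 3 (adjusted p = 0.0107) and -0.41 without both arrays, and 6 of the 12 leave-one-array-out fits did not call it (adjusted p up to 0.0662, without nmMLCK-/- VILI replicate 1), nor did the fit with no filter (adjusted p = 0.0533). Trpc6 under SB was 0.43 ± 0.29 higher in nmMLCK-/- than in WT (adjusted p = 1, unadjusted p = 0.171), 0.84 without WT SB replicate 3 (adjusted p = 0.139) and 0.17 without WT SB replicate 1. Under VILI the genotypes stood at 7.53 and 7.56, a difference of -0.03 with an interval of -0.67 to 0.62. The test of the difference between the responses gave -0.46 ± 0.41 (adjusted p = 0.982), and -0.86 ± 0.22 without WT SB replicate 3 (unadjusted p = 0.00331, adjusted p = 0.347), so no difference between genotypes was shown. It was -0.19 without WT SB replicate 1 and -0.76 without both arrays that stood apart (adjusted p = 0.377).

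Some smooth muscle markers were lower beside it. In the mean effect 3 of 5 fell, against 22.6% of all genes, Cnn1 by 0.86 ± 0.27, Actg2 by 0.69 and Tagln by 0.35, and the list's log2 summed signal was 14.20 to 14.66 in WT SB, 13.87 to 14.39 in WT VILI, 14.28 to 14.53 in nmMLCK-/- SB and 13.93 to 14.21 in nmMLCK-/- VILI. Each smooth muscle marker was also centred on its own mean over the arrays. The list median of these centred values ran from -0.02 to 0.48 in WT SB and from -0.46 to 0.18 in WT VILI. In nmMLCK-/- it ran from 0.01 to 0.38 under SB and from -0.37 to -0.13 after VILI. The part of these markers in the Trpc6 values was not tested.

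**Figure D2:**
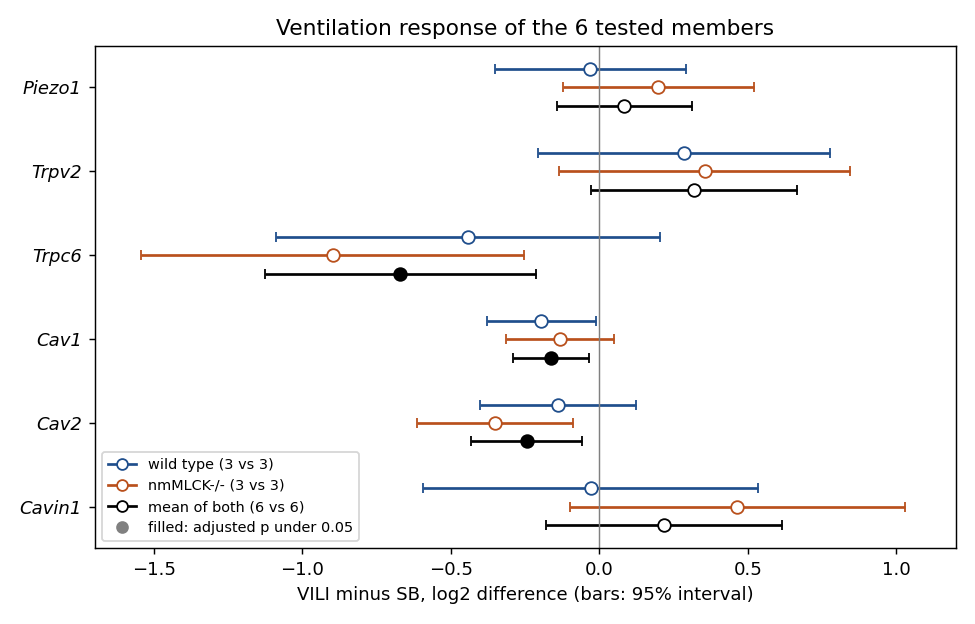
VILI minus SB as a log2 difference (horizontal axis) for the 6 tested members in WT, in nmMLCK-/- and in the mean of both, with 95% intervals from limma. Filled points have adjusted p under 0.05, and these are the mean effects of Trpc6 (-0.67), Cav1 (-0.16) and Cav2 (-0.24).

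Cav1, the main membrane protein of caveolae, read 14.54, 14.49 and 14.61 in WT SB and 14.39, 14.37 and 14.30 in WT VILI. In nmMLCK-/- it read 14.44, 14.52 and 14.46 under SB and 14.43, 14.39 and 14.20 after VILI. All 6 VILI arrays lay below all 6 SB arrays, as was the case for 10.4% of genes (17.9% in either direction). Within WT alone, groups with no overlap made up 20.5% of genes with VILI lower and 36% in either direction. The size was small, -0.19 ± 0.08 in WT (adjusted p = 0.136), -0.13 ± 0.08 in nmMLCK-/- (adjusted p = 0.271) and -0.16 ± 0.06 in the mean, 0.89-fold (adjusted p = 0.0493). The call on the mean was lost with array medians set equal (-0.12, adjusted p = 0.121), with quantile normalization (-0.13, adjusted p = 0.0855) and without the SB arrays that stood apart (-0.14, adjusted p = 0.132), and with the filter at the 60th percentile (adjusted p = 0.0507). Of the 12 leave-one-array-out fits, 10 did not make the call (adjusted p up to 0.102, without WT VILI replicate 3). In nmMLCK-/- the difference was -0.06 without VILI replicate 3.

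Cav2, whose protein pairs with caveolin-1, read 14.66, 14.77 and 14.97 in WT SB and 14.67, 14.60 and 14.72 in WT VILI. It read 14.76, 15.02 and 14.89 in nmMLCK-/- SB and 14.61, 14.67 and 14.33 in nmMLCK-/- VILI. The nmMLCK-/- groups did not overlap, as was the case for 43.8% of all genes (25.8% with VILI lower), and the WT groups did. The difference was -0.14 ± 0.12 in WT (adjusted p = 0.469) and -0.35 ± 0.12 in nmMLCK-/- (adjusted p = 0.0597), and the mean effect was -0.24 ± 0.08, 0.84-fold (adjusted p = 0.0427). Without WT SB replicate 3 the WT difference was -0.05, and the nmMLCK-/- difference passed at an unchanged -0.35 (adjusted p = 0.0406). The mean effect was -0.17 (adjusted p = 0.14) without both SB arrays that stood apart, and 9 of the 12 leave-one-array-out fits did not call it (adjusted p up to 0.0937, without nmMLCK-/- SB replicate 2). It was also lost with array medians set equal (-0.20, adjusted p = 0.0816), with quantile normalization (-0.21, adjusted p = 0.0725), with the mean of both probe sets (-0.18, adjusted p = 0.109) and with no filter (adjusted p = 0.0507). The difference between the genotypes' responses was -0.21 ± 0.17 (adjusted p = 0.982). A dim second probe set, at 3.65 to 4.25, gave a mean effect of -0.11 ± 0.09 (adjusted p = 0.361 over all probe sets).

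The endothelial markers did not all go one way. In the mean effect 4 of 10 fell, against 22.6% of all genes, among them Ramp2 by 0.80 ± 0.08, Tek by 0.65 and Car4 by 0.35. Against 14.1% of all genes, 1 of 10 rose, Cldn5 by 0.41 ± 0.08. The other 5 did not pass, with values from -0.27 (Pecam1) to 0.37 (Cdh5). The endothelial log2 summed signal was 16.13 to 16.25 in WT SB and 15.91 to 16.07 in WT VILI, and 16.07 to 16.14 in nmMLCK-/- SB and 15.87 to 15.92 in nmMLCK-/- VILI. Alveolar type 1 markers moved both ways, with 2 of 7 that rose and 1 that fell (Rtkn2 by 0.84 ± 0.13), against 14.1% and 22.6% of all genes. Their summed signal was 16.63 to 16.65, 16.49 to 16.60, 16.50 to 16.55 and 16.58 to 16.68 in the same order of groups. The part of the endothelial and alveolar type 1 markers in the Cav1 and Cav2 values was not tested.

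**Figure D3:**
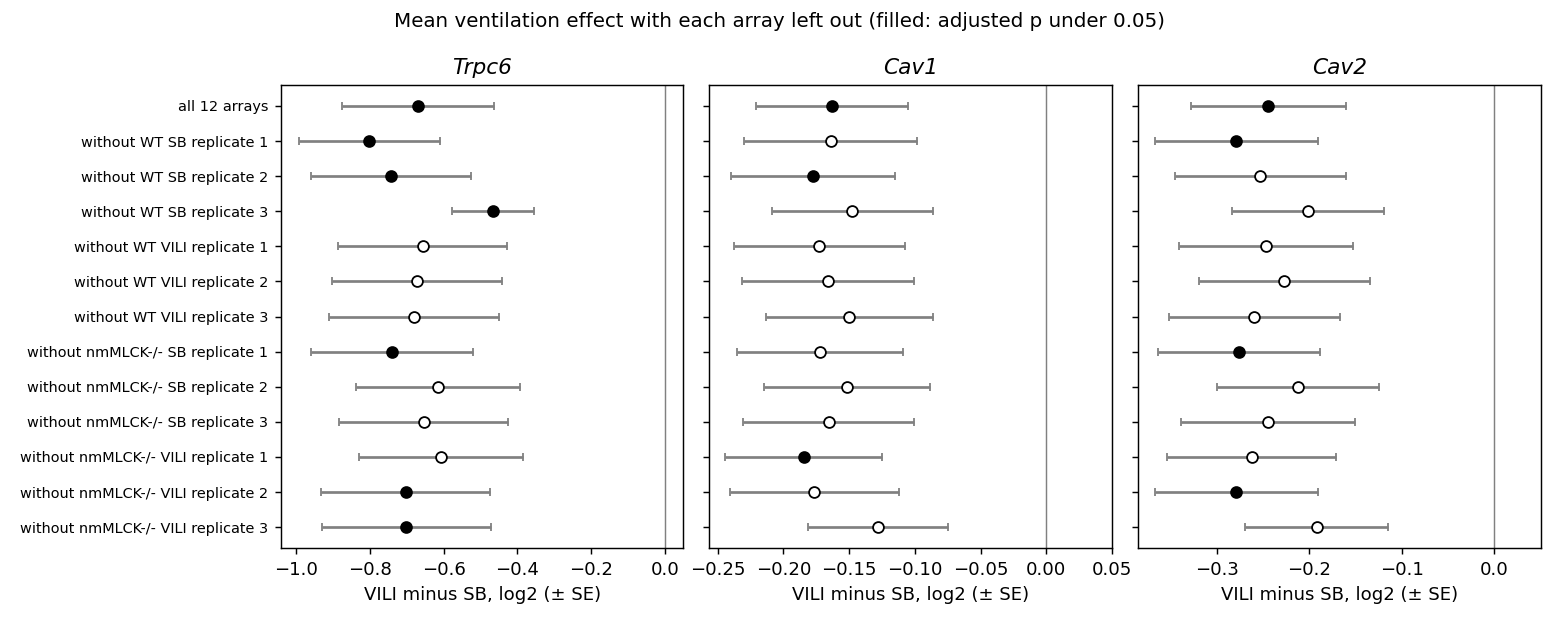
Mean VILI effect (log2, horizontal axis, ± SE) of Trpc6, Cav1 and Cav2 over all 12 arrays and with each array left out in turn. Filled points have adjusted p under 0.05; all values are below 0, and the call was lost in 6 of 12 fits for Trpc6, 10 for Cav1 and 9 for Cav2.

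Cavin1, the coat protein gene, passed in no comparison. It read 12.11, 11.60 and 11.46 in WT SB and 11.51, 12.17 and 11.41 in WT VILI. It read 12.16, 11.39 and 11.64 in nmMLCK-/- SB and 12.05, 12.14 and 12.39 in nmMLCK-/- VILI. The 3 nmMLCK-/- VILI arrays were uniformly high, and each of the other groups had 1 array above 12 and the others between 11.39 and 11.64. The difference was -0.03 ± 0.25 in WT (adjusted p = 0.949) and 0.47 ± 0.25 in nmMLCK-/- (adjusted p = 0.211), where it was 0.30 without nmMLCK-/- SB replicate 2 and 0.68 without nmMLCK-/- SB replicate 1. Under VILI it was 0.50 ± 0.25 higher in nmMLCK-/- than in WT (adjusted p = 0.618, unadjusted p = 0.0784), and the difference between the responses was 0.49 ± 0.36 (adjusted p = 0.982). The other Cavin1 probe sets, at 5.67 to 6.13 and 2.86 to 4.53, gave mean effects of -0.09 ± 0.08 and -0.23 ± 0.24 against 0.22 ± 0.18 for the leading one, none of which passed. The probe sets of Cavin1 thus differed in sign, and the mean over them was -0.03. The dimmest had a mean of 3.09, just above the filter level of 3.06. It read 4.53 in WT SB replicate 1 and 2.86 to 3.19 in the other arrays. Its VILI difference was -0.47 ± 0.34 in WT and 0.01 ± 0.34 in nmMLCK-/-. Its part in the mean over the probe sets therefore rests on that single array. Adipocyte markers, of a cell type rich in caveolae, spread widely, with a log2 summed signal over 3 genes of 9.38 to 9.84 in WT SB, 7.14 to 10.64 in WT VILI, 8.84 to 11.63 in nmMLCK-/- SB and 7.25 to 8.54 in nmMLCK-/- VILI. None of the 3 passed in the mean effect, and their part in the Cavin1 values was not tested.

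Between the genotypes, 0 of 6 members were called under SB (0.0487% of all genes) and 0 of 6 under VILI (0.106%), and 0 members had an unadjusted limma p under 0.05 in either. For the difference of the responses 0 of 6 members and 0 of 12309 genes were called (0% of all genes), with 0 members and 619 genes at an unadjusted p under 0.05. The comparisons of genotypes share their arrays with those of VILI against SB. The largest member difference under SB was that of Trpc6, and under VILI that of Cavin1. For Cav1 the genotype difference was -0.08 (95% interval -0.26 to 0.10) under SB and -0.01 (-0.20 to 0.17) under VILI. Within the groups the members did not share an order of arrays. nmMLCK-/- VILI replicate 3 had its group's highest Piezo1, Trpv2 and Cavin1 signals and its lowest Cav1 and Cav2 signals.

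The genes whose profile over the 12 arrays lay nearest to a called member were found by the root mean square difference of log2 values centred on each gene's mean, among 12308 genes. For Trpc6, whose SD over the arrays was 0.51, they were Dctpp1 (0.17), Ints11 (0.17) and Abcd2 (0.18). For Cav1 (SD 0.11) they were Cyp4b1 (0.04), Mcfd2 (0.04) and Nup205 (0.05), and for Cav2 (SD 0.18) Septin7 (0.06), Pcolce2 (0.07) and Kdm5d (0.07). Cav1 and Cav2 were not among each other's 3 nearest genes.

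Among other mechanosensitive channels, Trpm4 fell and Lrrc8a rose. Of 17 listed, 10 were tested, and in the mean effect 2 rose and 2 fell, against 14.1% and 22.6% of all genes. These counts are near the background. The list median was 0.09 log2 beside -0.05 for all genes. Trpm4 is a calcium-activated cation channel. It read 7.71 to 8.30 in the SB arrays and 6.77 to 7.47 in the VILI arrays, with no overlap (as for 10.4% of all genes, with VILI lower). It fell by 0.87 ± 0.15 in the mean effect (adjusted p = 0.00194), by 0.88 in WT (adjusted p = 0.0228) and by 0.86 in nmMLCK-/- (adjusted p = 0.0207). The mean effect was called in 20 of 20 alternative settings. The WT call was lost in 4 of 21, without WT SB replicate 3, WT VILI replicate 1 or WT VILI replicate 3 (adjusted p up to 0.083) and with only the groups compared. The nmMLCK-/- call was also lost in 4 of 21, each without 1 nmMLCK-/- array (adjusted p up to 0.0768, without SB replicate 2). Lrrc8a is a subunit of the volume-regulated anion channel. It read 10.41 to 11.16 under SB and 11.44 to 11.86 after VILI, also with no overlap (as for 7.45% of all genes, with VILI higher). It rose by 0.84 ± 0.15 in the mean effect (adjusted p = 0.00201) and by 1.00 ± 0.21 in nmMLCK-/- (adjusted p = 0.0102), while in WT 0.67 ± 0.21 did not pass (adjusted p = 0.053). WT SB replicate 3 and nmMLCK-/- SB replicate 2 had its lowest signals, 10.41 each. Without both, the mean effect was 0.62, and without the latter the nmMLCK-/- difference was 0.80. The mean effect was called in 20 of 20 alternative settings and the nmMLCK-/- difference in 21 of 21. Trpc1, a relative of Trpc6, fell by 0.41 ± 0.09 in the mean effect (adjusted p = 0.00716) and by 0.58 in nmMLCK-/- (adjusted p = 0.0143), with -0.24 in WT (adjusted p = 0.239). The nmMLCK-/- call on Trpc1 was lost without SB replicate 2 (adjusted p = 0.0551) and without VILI replicate 1. Tmem63b, a channel opened by low osmolarity, rose by 0.21 ± 0.06 (limma adjusted p = 0.0276). It kept this call in 12 of 20 alternative settings (limma adjusted p up to 0.0725, without the SB arrays that stood apart). Piezo2, the relative of Piezo1 known from touch, was at 0.32 ± 0.20 and did not pass (adjusted p = 0.241). In WT 1 of the 10 fell and none rose, against 9.03% and 6.34% of all genes, and in nmMLCK-/- 2 rose and 2 fell, against 8.12% and 12.6%. With array medians set equal the calls in WT over all genes were 926 higher and 839 lower, in place of 780 and 1112.

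Among the other caveolar coat genes, Ehd1 and Cavin2 fell. Of 10 listed, 7 were tested, and in the mean effect 2 fell and none rose, against 22.6% and 14.1% of all genes (median -0.03, 0.01 with array medians set equal, 1 that fell and median 0.04 without the SB arrays that stood apart). Ehd1, a membrane-remodelling ATPase of recycling endosomes, read 12.04 to 12.24 under SB and 11.55 to 11.80 after VILI and fell by 0.49 ± 0.06 (adjusted p = 0.000385). It was called in WT (-0.42 ± 0.09, adjusted p = 0.0132) and in nmMLCK-/- (-0.57 ± 0.09, adjusted p = 0.00315) too. The WT call on Ehd1 was lost with only the groups compared (adjusted p = 0.0514) and without WT VILI replicate 1. Cavin2, a partner of cavin-1, was at -0.17 ± 0.06 (adjusted p = 0.0407) and kept its call in 6 of 20 alternative settings. Ehd4 (0.09) and Dnm2 (-0.07) did not pass, and neither did Ehd2, which holds caveolae at the membrane, at 0.04 ± 0.13 (adjusted p = 0.821).

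Among genes for proteins that reside in or signal from caveolae, 2 of 8 rose and 3 fell in the mean effect, against 14.1% and 22.6% of all genes. The list median was -0.11 beside -0.05 for all genes, and it was -0.06 without WT SB replicate 3 and -0.05 without both SB arrays that stood apart. Gprc5a, an orphan receptor of lung epithelium, rose by 0.62 ± 0.08 (adjusted p = 0.000396) and was called in both genotypes. The kinase gene Src rose by 0.53 ± 0.14 (adjusted p = 0.0149). Nos3, the endothelial nitric oxide synthase that caveolin-1 holds inactive, fell by 0.50 ± 0.14 (adjusted p = 0.0157), and was at -0.50 in WT (adjusted p = 0.103) and -0.51 in nmMLCK-/- (adjusted p = 0.0856). The insulin receptor gene Insr fell by 0.37 ± 0.10 (adjusted p = 0.0145).

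Among calcium effectors and flow targets, Klf2 fell and Rcan1 rose in both genotypes. Of 15 listed, 12 were tested, and in the mean effect 2 rose and 4 fell, against 14.1% and 22.6% of all genes, with 1 that rose and 3 that fell without the SB arrays that stood apart. The median was -0.15 and turned to 0.05 with the mean of probe sets, where 3 rose and 3 fell. Klf2, a transcription factor that laminar flow induces in endothelium, read 13.43 to 13.85 in the SB arrays and 11.16 to 11.68 in the VILI arrays. It fell by 2.28 ± 0.15 in WT (adjusted p = 4.09e-05) and by 2.22 ± 0.15 in nmMLCK-/- (adjusted p = 5.78e-05). The SB and VILI arrays did not overlap, as for 10.4% of all genes with VILI lower. Klf4, a related factor, read 14.00 to 14.43 and 13.43 to 13.80, and fell by 0.60 ± 0.08 (adjusted p = 0.000485). Rcan1 is induced by calcineurin and NFAT and restrains calcineurin. It read 9.98 to 10.50 under SB and 11.03 to 12.08 after VILI, with no overlap (as for 7.45% of all genes, with VILI higher). It rose by 1.66 ± 0.23 in WT (adjusted p = 0.00192) and by 1.30 ± 0.23 in nmMLCK-/- (adjusted p = 0.00542), a call lost with the mean of probe sets (adjusted p = 0.0718). Nfatc4 fell by 0.55 ± 0.14 in the mean effect (adjusted p = 0.0104). Of the endothelial markers given above 4 of 10 fell and 1 rose, and their part in the Klf2 values was not tested.

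**Figure D4:**
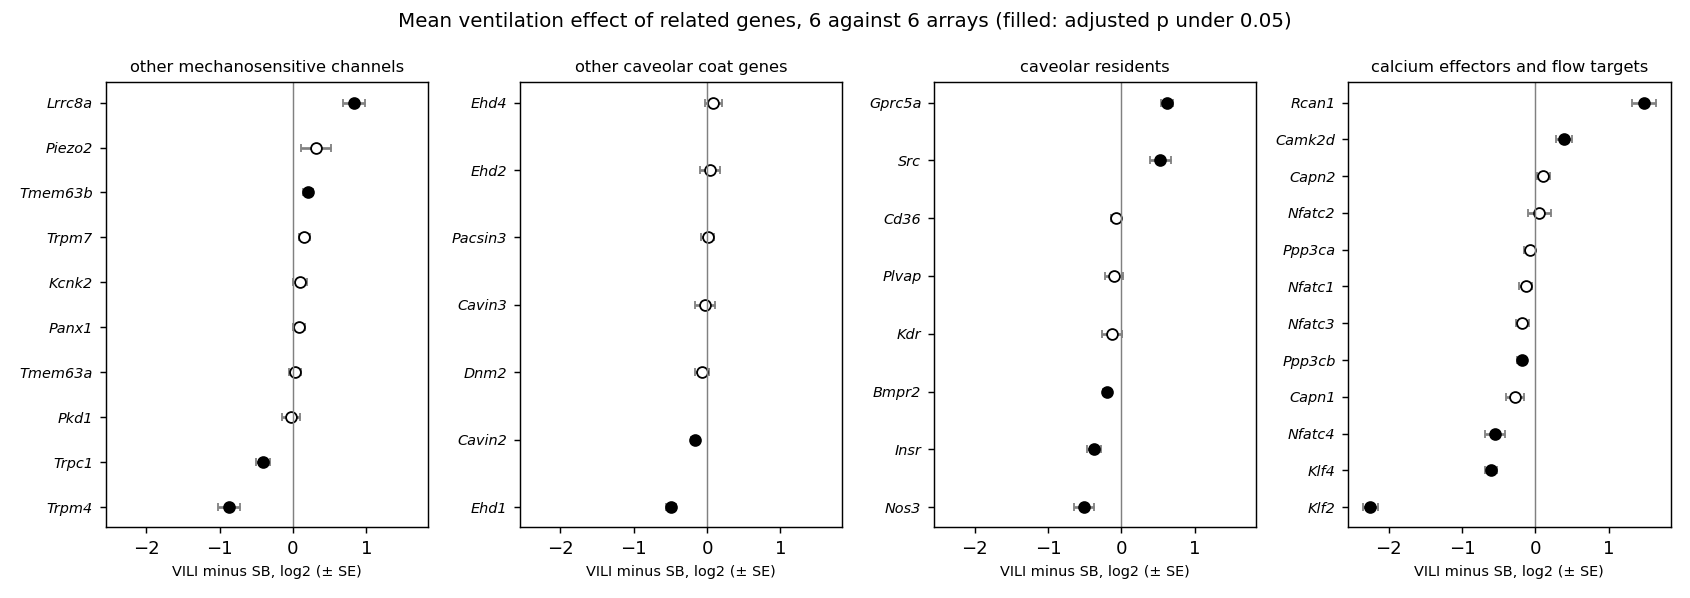
Mean VILI effect (log2, horizontal axis, ± SE, 6 against 6 arrays) of the tested genes of the 4 related lists. Filled points have adjusted p under 0.05. Klf2 lies lowest at -2.25 and Rcan1 highest at 1.48, with the other genes between -0.87 and 0.84.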

How the data were processed

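Values were used as the authors deposited them, on a log2 scale with 1 signal per probe set; per the submitters' processing notes MAS5 and GCRMA were used, with their roles not given in the sources used here. Values ran from 0.75 to 16.3, with array medians of 4.94 to 5.04. Array summaries compress differences of dim probe sets, and where arrays are equalised a change in total RNA cannot be seen. Probe sets were named by the platform annotation, and 34945 had 1 symbol, 932 several and 9160 none. Those under the 40th percentile were left out, the brightest probe set on average stood for a gene, and 12309 genes were fitted with limma 3.58.1 in R 4.3.3 (lmFit and eBayes, 4 group means over 12 arrays, Benjamini-Hochberg within a comparison). The number of arrays limits the precision, with a median SE of 0.15 log2. Promoter sequences are RefSeq's, of build GRCm38.p6. Named genes are the members, Mylk, up to 4 genes with the smallest p for the mean effect of each list described, and the 3 nearest profiles of called members; Piezo2 and Ehd2 were named after their values were seen. The members and lists were chosen with earlier results of these data known. Alternatives were the scaling, filter, probe set rule, variance moderation, samples fitted, a replicate block and arrays left out.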

Additional observations from a re-analysis of the deposited data

How the results depend on the processing

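Of 744 alternative values of the 36 member differences, 674 kept their direction and their side of the threshold, 37 lost a call, 9 gained 1 and 24 turned sign, the latter all for differences that were not called. Those that turned were Piezo1 in WT (0.0178 with medians set equal; -0.15 to 0.0783 without 1 array), Cavin1 in WT (0.0192 with medians set equal; -0.27 to 0.16 without 1 array), between genotypes under SB (-0.23 with the mean of probe sets, and -0.21 to 0.20 over the fits without 1 array) and in the mean effect (-0.0330 with the mean of probe sets), Trpv2 in the difference of responses (-0.23 without WT-SB replicate 3 and KO-SB replicate 2 together; -0.16 to 0.30 without 1 array) and between genotypes (0.24 under SB without both; -0.29 to 0.17 under SB and -0.13 to 0.14 under VILI without 1 array), and Cav1 (-0.0578 to 0.0547) and Trpc6 (-0.0926 to 0.100) between genotypes under VILI.

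The count of called members in the mean effect was 1 in place of 3 with medians set equal, quantile normalization, no filter, the replicate block or without both SB arrays that stood apart, and 0 to 2 without 1 array. In nmMLCK-/- it was 1 in place of 0 with the filter at the 60th percentile, eBayes with trend and robust, the fit limited to the groups compared, the replicate block or without both arrays, and 0 to 2 without 1 array. Over all genes, the count in WT was 845 with the groups compared alone and 932 to 2055 without 1 array, and in nmMLCK-/- 1213 to 3292 without 1 array. Between genotypes under SB it was 0 with the groups compared alone or the replicate block, 18 without both arrays and 0 to 16 without 1 array. Under VILI it was 6 with no filter, 8 with the filter at the 60th percentile, 2 with the replicate block, 28 without both arrays and 2 to 19 without 1 array. For the difference of responses it was 1 with no filter, 11 without both arrays and 0 to 6 without 1 array. The cause was not tested.

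No sign of pairing by replicate number was seen. The correlation of deviations from the group means ran from -0.63 to 0.40 over 18 same-numbered pairs and from -0.54 to 0.71 over 36 others. Of 12 arrays, 3 correlated best with their own number. With 3 arrays per group these values cannot exclude a pairing. With the replicate block the mean effect of Cav1 had adjusted p = 0.0796 and that of Cav2 0.0709, and Trpc6 in nmMLCK-/- had 0.0419.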

Other observations

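Trpv2 was called in no comparison, and its nearest profiles over the 12 arrays, looked up after its values were seen, were those of Itgax, which encodes the CD11c integrin chain of alveolar macrophages and dendritic cells, at a root mean square difference of 0.15 log2, Tmem184a (0.15) and Gusb (0.16). In the same way, the profiles nearest to Piezo1 were those of Dpp8 (0.07), Ddx39b (0.07) and Npr1 (0.08), and those nearest to Cavin1 were Ube2o (0.12), Tmem250-ps (0.13) and Cntd1 (0.14).

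Trpv4 read 2.85 in WT SB replicate 2, and the dimmest Cavin1 probe set read 4.53 in WT SB replicate 1, where the other arrays lay between 1.85 and 2.11 and between 2.86 and 3.19. These are values of single arrays at signals near the filter level. The Cavin1 value enters every difference given with the mean of probe sets that uses WT SB.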
